A study of Mus musculus with 8 samples.

Results

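The liver of mice with non-alcoholic steatohepatitis (NASH) that received extracellular vesicles (EVs) of bovine colostrum at the high dose was compared with the liver of mice with NASH alone, gene by gene, over the whole transcriptome. The comparison rests on 2 of the 8 libraries of the study, the liver libraries of the EVs high dose group and of the NASH group. The 8 libraries cover liver and colon of a control group, a NASH group, an EVs low dose group and an EVs high dose group, with 1 library for each tissue and group. There are therefore no replicates, no spread between animals is known, no test was made, and every ratio below describes a pair of libraries. The labels give no dose amount, strain, sex, age, diet, length of treatment or number of animals behind a library. That the EV groups had NASH comes from the series' design text. Values are FPKM, a fragment count corrected for transcript length and for the total of mapped reads, so the sequencing depth is unknown.

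Of 45777 genes in the table, 7445 reached 5 FPKM in at least 1 of the 2 libraries and were kept. The ratio of a gene is log2 of (FPKM + 1) in the EV high dose library over (FPKM + 1) in the NASH library, less the same for the median kept gene, which stood at -0.10 as deposited. A ratio of 1 is a doubling relative to that median gene, and the added 1 FPKM makes the ratios of low genes smaller than their FPKM alone would. Over the kept genes the quartiles of the ratio were -0.22 and 0.21, and its 1st and 99th percentiles -0.85 and 0.93. The EV low dose and control livers are given beside each gene for orientation. The EV low dose and EV high dose livers are both read against the same NASH library, so a value particular to that library would move both.

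NASH is a fatty liver disease with inflammation, hepatocyte injury and scarring. In male rodents the pulsed secretion of growth hormone drives a set of male-biased hepatocyte genes for pheromone carriers, steroid-metabolising enzymes and uptake carriers, through the receptor, the kinase JAK2 and the transcription factor STAT5B. Injured hepatocytes also switch on the integrated stress response, in which the transcription factor ATF4 induces genes for amino acid supply, its own feedback inhibitor Trib3 and the hormone Fgf21. Extracellular vesicles are membrane-bound particles released by cells, and colostrum, the first milk, is rich in them.

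The liver of the EV high dose group held more RNA than the NASH liver for male-biased carriers, drug-metabolising enzymes and amino acid-catabolising enzymes, and less for calprotectin, stress-response genes and 1 of the hepcidin copies. Of the kept genes 69 were at least 2-fold higher (0.927%) and 31 at least 2-fold lower (0.416%). At 1.5-fold these were 312 (4.19%) and 374 (5.02%). The split depends on the choice of zero. Without taking off the median gene it was 54 higher and 55 lower at 2-fold and 191 and 628 at 1.5-fold, and with both libraries scaled to the same protein-coding sum it was 46 and 90, and 127 and 953. Every ratio is lower by 0.10 in the former case. In the latter it is lower by about 0.19 for abundant genes and by less for genes low in EV high dose. H2-DMa, 1 of these low genes, went from -1.42 to -1.57. Of the kept genes 789 reached 5 FPKM in NASH alone of the 2 libraries and 145 in EV high dose alone. Such a gene passed through the library where it is high, so counts and medians over kept members describe the members that passed and no more. Of the 69 higher genes 60 were protein-coding and 23 were Mup genes or pseudogenes, and of the 31 lower genes 26 were protein-coding.

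**Figure D1:**
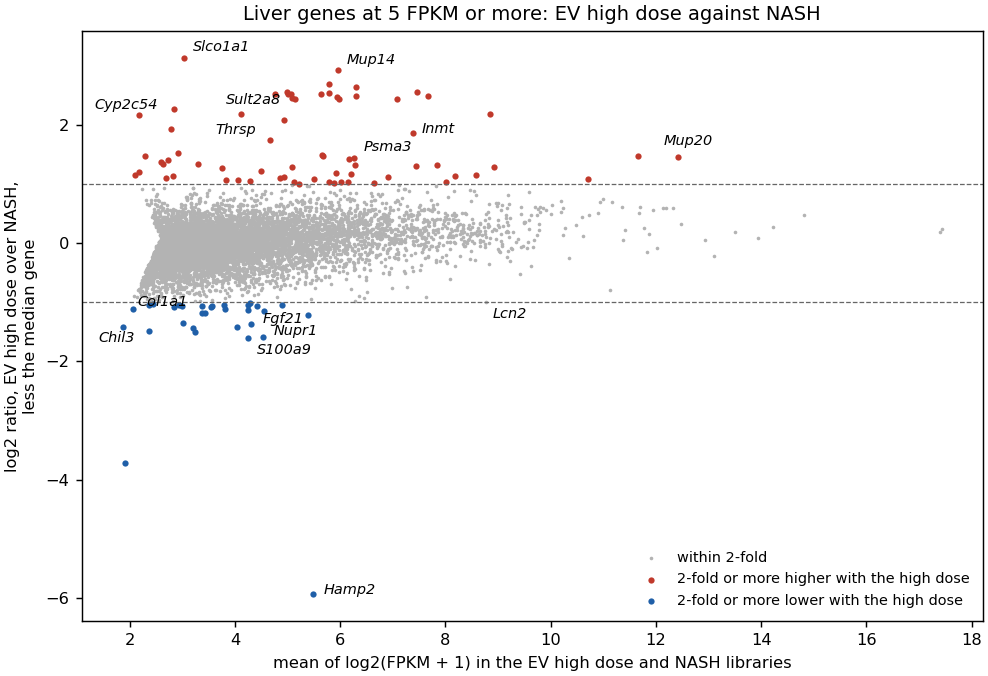
Log2 ratio of EV high dose over NASH liver, less the median gene (vertical axis), against the mean log2(FPKM + 1) of the 2 libraries (horizontal axis), for the 7445 kept genes, 1 point a gene. Red points are the 69 genes at least 2-fold higher, blue points the 31 at least 2-fold lower, and dashed lines mark 2-fold. Hamp2 lies far below all others at -5.93, and most of the highest points are Mup genes.

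Male-biased genes stood highest. Of 28 on the list, 20 were kept, 13 of them 2-fold higher and 19 at least 1.5-fold higher, with none 1.5-fold lower. Their median ratio was 1.24, against 0 by construction over all kept genes. Mup1, Mup3, Mup7, Mup11, Mup14, Mup20 and Mup21 are among the 13. As close copies in the same cluster they are not separate observations. Those 2-fold higher outside the cluster were Slco1a1, Cyp4a12a, Keg1, Ugt2b1, Cyp7b1 and Selenbp2. With the Mup members left out, the middle ratio of the list was that of Ugt2b38, 0.96. Slco1a1, an uptake carrier for bile acids, steroid conjugates and other organic anions (gene ID 28248, GRCm38 chromosome 6, 141907281 to 141946962), was at 158 FPKM in control, 1.86 in NASH, 6.29 in EV low dose and 22.3 FPKM in EV high dose, a ratio of 3.13. NASH was the lowest of the 4 livers for this gene and EV high dose lay between EV low dose and control. Gstp1, a glutathione transferase, was the list member with the lowest ratio, -0.08. Most of the highest genes of the whole comparison were major urinary proteins, lipocalins that are made by the liver, pass into urine and carry pheromones. Mup14 was at 2311 FPKM in control, 22.3 in NASH, 64.4 in EV low dose and 164 FPKM in EV high dose, a ratio of 2.93. Mup3 was at 13629, 223, 499.98 and 947 FPKM in the same order, a ratio of 2.18. For both, EV high dose was still far below control.

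Mup20, known as darcin, a male pheromone, had another order of levels. It was at 5256 FPKM in control, 3415 in NASH, 5930.5 in EV low dose and 8689.6 FPKM in EV high dose, a ratio of 1.45, and so was above control in both EV livers. The 22 protein-coding Mup genes together held 60499 FPKM in control, 4143 in NASH, 7743 in EV low dose and 12413 FPKM in EV high dose. That is 13.8%, 1.11%, 2.05% and 3.11% of all protein-coding FPKM. Mup20 supplied most of the Mup FPKM in NASH and in both EV livers, and Mup3, Mup7 and other members most of it in control. These genes are close copies, and the transcripts of Mup14 and Mup7 were 88.9% identical over their alignment and those of Mup14 and Mup20 89.7%, so how the fragments divide among members is uncertain. The 23 Mup genes and pseudogenes at least 2-fold higher form 1 run on chromosome 4 (GRCm38, 60066469 to 62150841).

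Other male-biased members outside the Mup cluster were higher by less. Cyp4a12a, a fatty acid omega-hydroxylase, was at 46.8 FPKM in control, 2.87 in NASH, 3.43 in EV low dose and 8.35 FPKM in EV high dose, a ratio of 1.37. Keg1, a glycine acyltransferase-like gene, was at 89.9, 21.5, 35.2 and 50.2 FPKM (1.29), and Cyp7b1, which hydroxylates oxysterols, at 114, 13.1, 14.8 and 26.2 (1.05). All 3 were lowest in NASH. Of 20 female-biased genes 10 were kept, with a median of 0.36, 3 members 1.5-fold higher and none 1.5-fold lower. Acot3, a peroxisomal acyl-CoA thioesterase, was at 0.747 FPKM in control, 7.99 in NASH, 12.9 in EV low dose and 19.3 FPKM in EV high dose (1.27). Cyp2a4 and Cyp2b9, female-predominant P450s, had ratios of -0.44 and -0.41. Sex-biased genes of both kinds thus included members above the median gene, and the male-biased list had by far the larger median.

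The growth hormone axis itself had a median of -0.10 over 13 kept members of 17, with 3 at least 1.5-fold higher and 2 lower. Ghr, the growth hormone receptor, was at 115 FPKM in control, 44.6 in NASH, 54.7 in EV low dose and 75.1 FPKM in EV high dose (0.84). Igf1, the circulating growth factor induced by growth hormone, was at 42.5, 30.7, 37.1 and 45.8 FPKM (0.66), and Igfals, which holds it in the circulating complex, at 40.1, 15.4, 19.5 and 25.995 (0.82). Igfbp1, an insulin-suppressed binding protein of the same growth factor, lay the other way at 50.2, 114, 61.2 and 56.8 FPKM (-0.89). Socs2, a feedback inhibitor induced by growth hormone, had a ratio of 0.48, and the inflammation-induced inhibitor Socs3 -0.59, or -0.12 against genes of similar GC content and length (described below). Stat5b and Jak2 stood at -0.22 and -0.13, inside the quartiles of all kept genes, and Stat5b at 0.11 on the matched reference.

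**Figure D2:**
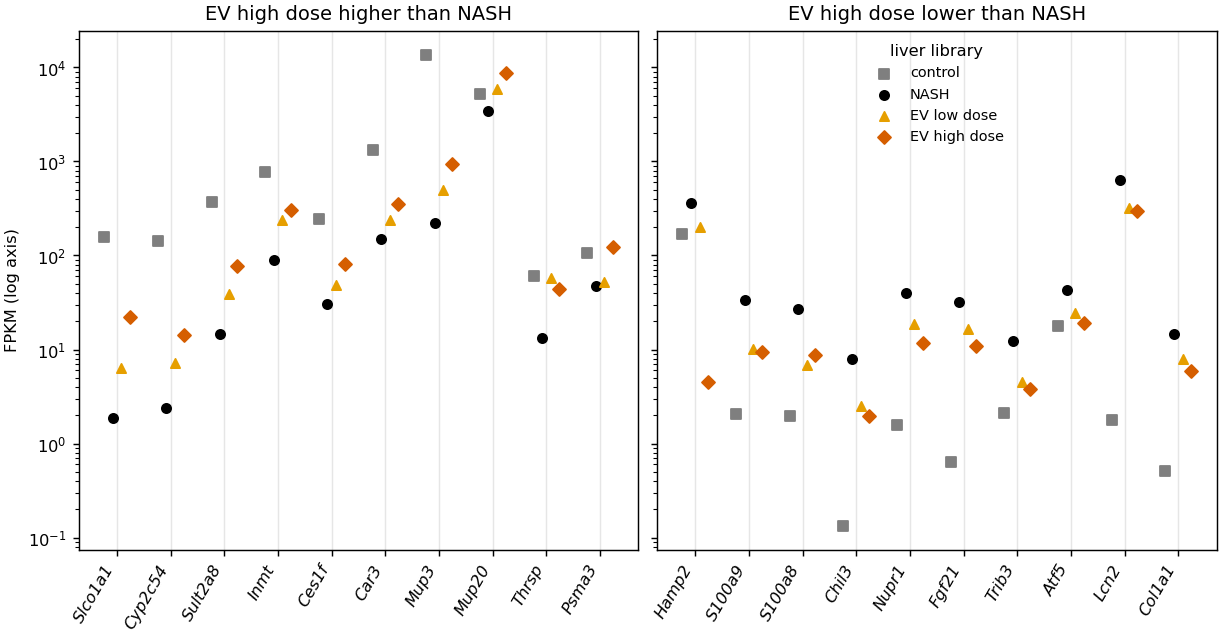
FPKM (vertical log axis) of 20 named genes in the 4 liver libraries, 1 symbol a library, with genes higher in EV high dose than in NASH on the left and lower on the right. On the left NASH is the lowest library for each gene. On the right NASH is the highest for each gene, and Hamp2 is the gene in which EV high dose lies below all other libraries by a wide margin.

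Drug-metabolising enzymes were the broadest group above the median gene. Among the phase 1 enzymes, P450s and carboxylesterases that oxidise or hydrolyse lipids and drugs, 36 of 41 were kept, 10 were 2-fold higher, 18 were 1.5-fold higher and none was 1.5-fold lower, with a median of 0.59. Cyp2c54 was at 142 FPKM in control, 2.38 in NASH, 7.16 in EV low dose and 14.2 FPKM in EV high dose (2.27), and its neighbour Cyp2c50 at 295, 44.4, 74.9 and 112 (1.41). With Cyp2c37 they form a run of 3 higher genes on chromosome 19 (39992424 to 40113955). The carboxylesterases Ces1f (243, 30.2, 48.6 and 80.4 FPKM, ratio 1.48) and Ces3b (304, 30.5, 46.1 and 80.5 FPKM, ratio 1.47) were next, and 5 carboxylesterase genes of 2 groups on chromosome 8 were among those 2-fold higher. Ces1d, a triglyceride hydrolase of the endoplasmic reticulum, was at 402, 114, 224 and 262 FPKM (1.296). Cyp3a11 and Cyp2e1, abundant P450s of drug and ethanol oxidation, were higher by less, at 0.69 each.

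Phase 2 enzymes, which conjugate sulfate, glucuronide, glutathione or methyl groups, had 36 of 38 members kept, 5 of them 2-fold and 15 at least 1.5-fold higher, none 1.5-fold lower, and a median of 0.49. Sult2a8, a bile acid sulfotransferase, was at 373 FPKM in control, 14.6 in NASH, 39.0 in EV low dose and 77.8 FPKM in EV high dose (2.44). Inmt, which methylates indole amines, was at 773, 89.2, 237 and 304 FPKM (1.86). Ugt2b1, Ugt2a3 and Sult1b1 lie together on chromosome 5 (86916639 to 87538195) and had ratios of 1.19, 1.17 and 1.10. Of 15 kept carriers of organic anions and drugs 5 were 1.5-fold higher and none lower, with a median of 0.04, so the carriers as a list stood near the median gene while Slco1b2 (0.87) and Slc10a1 (0.70), hepatocyte uptake carriers, were higher.

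Bile acid genes had 19 of 22 members kept, 7 at least 1.5-fold higher, none lower and a median of 0.49. Slc27a5, which activates bile acids for conjugation, was at 331 FPKM in control, 102 in NASH, 152 in EV low dose and 188 FPKM in EV high dose (0.97). Cyp8b1, which sets the share of cholic acid, was at 141, 22.2, 19.6 and 35.8 (0.77). Cyp7a1, the rate-limiting enzyme of the classical pathway, was at 9.52, 57.8, 70.7 and 88.9 FPKM (0.72). Cyp8b1 was thus well below control in EV high dose and Cyp7a1 well above it, although both were higher than in NASH. Enzymes of the urea cycle and amino acid breakdown had 38 of 39 members kept, 13 at least 1.5-fold higher, none lower and a median of 0.48. Hal, which deaminates histidine, was at 117, 24.1, 42.1 and 45.2 FPKM (0.99), Oat, ornithine aminotransferase, at 176, 103, 99.05 and 179 (0.90), and Otc, a urea cycle enzyme, at 177, 85.5, 125 and 142 (0.82). Oat was the member of these 3 in which EV low dose did not differ from NASH by more than a few FPKM.

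Complement and coagulation factors, secreted by hepatocytes, had all 42 members kept, 8 at least 1.5-fold higher, none lower and a median of 0.35 (0.16 with the same protein-coding sum), led by Mbl2 (0.86), a lectin of the complement system, and C8b (0.82). Nuclear genes of oxidative phosphorylation had 31 of 32 members above 0 with a small median of 0.26. Hepatocyte identity genes, the check of the labelled tissue, had 22 of 25 members kept and none 1.5-fold apart, with a median of 0.13. Their summed FPKM was 43457 in NASH and 43363 in EV high dose. Of 25 markers of fat, pancreas, gut and muscle, 16 were listed at 0 in both libraries and 2 reached 5 FPKM.

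**Figure D3:**
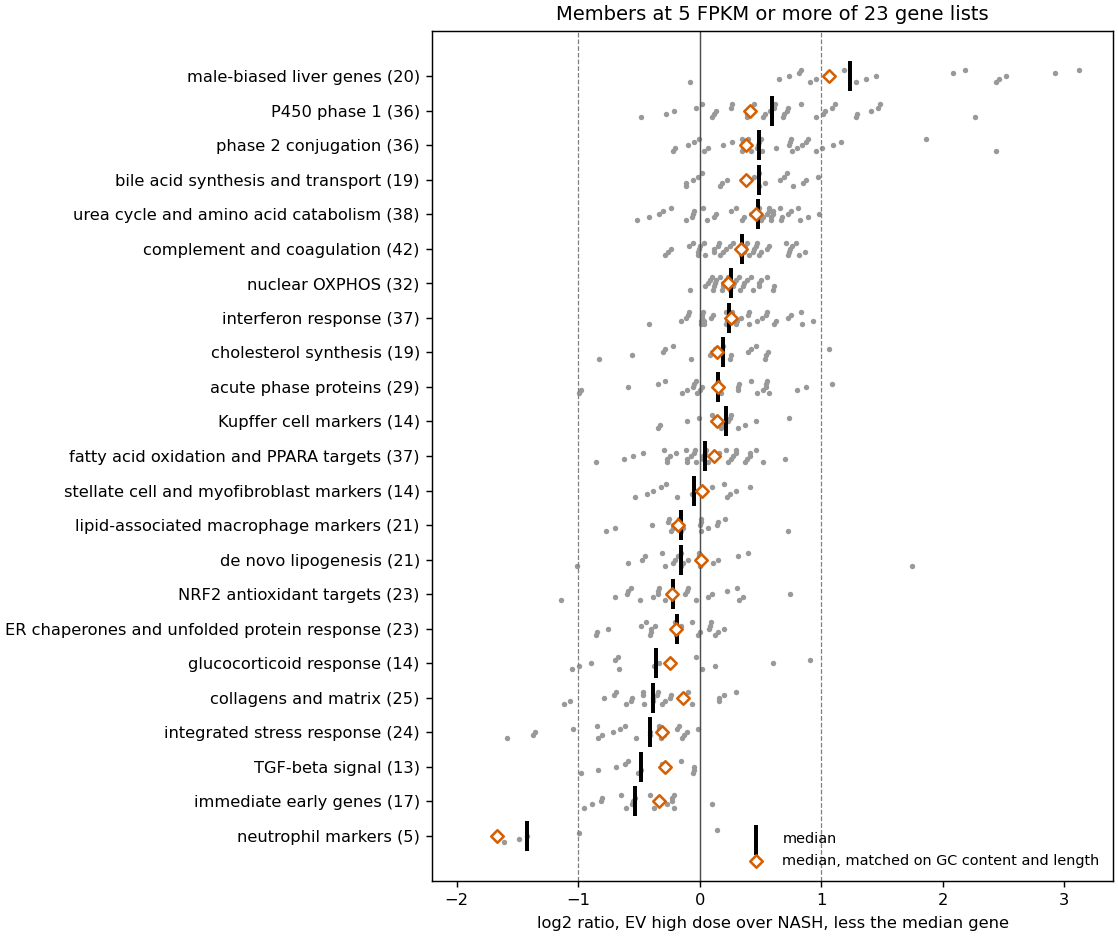
Ratios of EV high dose over NASH liver for the kept members of 23 gene lists, 1 grey point a gene, with the number kept in brackets. The black bar is the list's median and the orange diamond its median after each gene is read against genes of similar transcript GC content and length. Male-biased and drug-metabolising lists lie right of 0, and stress, immediate early and neutrophil lists lie left of it.

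Integrated stress response genes were lower as a list. Of 36 genes 24 were kept, 10 were at least 1.5-fold lower and 4 at least 2-fold lower, and none had a ratio above 0. The median was -0.41, and 4 of the 24 were kept through NASH alone. Nupr1, a small chromatin protein induced by ATF4, was at 1.56 FPKM in control, 40.4 in NASH, 18.6 in EV low dose and 11.8 FPKM in EV high dose (-1.59). Fgf21, a liver hormone of fasting and stress, was at 0.641, 32.1, 16.4 and 10.9 FPKM (-1.37). Trib3, a pseudokinase that restrains the pathway, was at 2.09, 12.3, 4.54 and 3.84 (-1.36), and Atf5, a transcription factor of the pathway, at 17.9, 43.3, 24.4 and 19.0 (-1.05). For each of these 4 genes NASH was the highest liver and EV high dose lay closest to control among the 3 disease libraries. Asns, asparagine synthetase, was at 2.37, 19.1, 10.97 and 9.44 FPKM (-0.84) and Ddit3, which encodes the pro-death factor CHOP, at 2.15, 12.3, 8.34 and 6.87 (-0.65). Atf4 RNA differed little, at 46.0, 45.8, 38.4 and 37.3 FPKM (-0.19), and ATF4 is known to be raised mainly by translation.

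The response acts through a DNA element bound by ATF4 and its partners, and the promoters of 3 of the lower genes are shown because each holds a copy. The motif searched was TGATGNAA on both strands, in RefSeq promoters of GRCm38.p6 from 250 bases before to 50 after the start. It was found in 3.97% of 32851 promoters and in 2.84% of the 5815 kept genes with a promoter there. Of the 20 kept list members with a promoter 6 had a match, and of the 10 that were 1.5-fold lower 5 had one. Pck2 and Atf3 also matched before the start, and Trib3 after it. Below, 80 bases upstream of each start are given 5′ to 3′ on the gene's strand, with the match in capitals. They are chr7:126625537-126625616 for Nupr1, chr7:45615586-45615665 for Fgf21 and chr6:7693210-7693289 for Asns, all on the minus strand.
Nupr1: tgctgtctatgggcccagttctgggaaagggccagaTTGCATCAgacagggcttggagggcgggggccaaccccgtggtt
Fgf21: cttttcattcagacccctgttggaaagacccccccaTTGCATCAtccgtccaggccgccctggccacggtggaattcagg
Asns: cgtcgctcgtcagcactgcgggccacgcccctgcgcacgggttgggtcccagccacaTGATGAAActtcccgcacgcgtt
Nupr1 and Fgf21 share the letters of the match, on the opposite strand to that of Asns. A match is a description of the letters and no evidence of binding in these livers.

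Immediate early genes, induced within minutes by growth factors, stress or handling, had 17 of 25 members kept, 6 at least 1.5-fold lower, none higher and a median of -0.53. Egr1 was at 2.11 FPKM in control, 7.06 in NASH, 2.83 in EV low dose and 2.89 FPKM in EV high dose (-0.95), and Fos at 1.06, 5.48, 3.64 and 2.44 (-0.81). Myc was at 0.386, 5.14, 3.31 and 2.28 FPKM (-0.80). These 3 genes were under 10 FPKM in all livers and were kept through NASH alone, as were 5 of the 17 in all. With genes kept at 1 FPKM the list median was -0.34, and with no filter -0.39. Endoplasmic reticulum chaperones and the unfolded protein response had 3 of 23 kept members 1.5-fold lower, none higher and a median of -0.19, close to the lower quartile of all genes. Heat shock genes had 3 of 16 lower, none higher and a median of -0.12. Hspa1b, the inducible HSP70, was at 2.38, 9.78, 5.24 and 3.73 FPKM (-1.08). NRF2 antioxidant targets had 4 of 23 lower, 1 higher and a median of -0.22, with the oxidative stress-induced Osgin1 lowest at 30.7, 34.9, 22.0 and 14.2 FPKM (-1.14), below control in both EV livers.

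Glucocorticoid response genes had all 14 members kept, 6 at least 1.5-fold lower, 2 higher and a median of -0.36. Of the 14, 4 were kept through NASH alone and 1 through EV high dose alone. Fkbp5, a chaperone strongly induced by glucocorticoids, was at 2.83 FPKM in control, 24.6 in NASH, 20.6 in EV low dose and 14.1 FPKM in EV high dose (-0.66), and Zbtb16, a repressor, at 1.82, 6.71, 4.34 and 2.47 (-1.05). Hsd11b1, which regenerates the active hormone inside hepatocytes, was higher, at 445, 112, 170 and 198 FPKM (0.91). Lcn2, on this list and on those of acute phase proteins and neutrophils, is described with the latter. Clock genes had a median of -0.09 over 15 members, with the repressor Nr1d1 at -0.92. The labels give no hour of collection.

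Calprotectin led the immune genes that were lower. S100a9 and S100a8, its subunits in neutrophils and monocytes, are neighbours on chromosome 3 (90669071 to 90695721). S100a9 was at 2.08 FPKM in control, 33.2 in NASH, 10.2 in EV low dose and 9.46 FPKM in EV high dose (-1.61), and S100a8 at 1.95, 26.7, 6.89 and 8.65 (-1.42). Chil3, a lectin secreted by myeloid cells, was at 0.132, 7.92, 2.49 and 1.96 FPKM (-1.49). All 3 were highest in NASH, and the EV livers lay above control. Lcn2, lipocalin-2, which injured hepatocytes make as well as neutrophils, was at 1.80, 633, 322 and 296 FPKM (-0.99). Hp, haptoglobin, on the list but made mainly by hepatocytes, was at 0.14. These 5 were the only neutrophil markers of 21 that were kept, with a median of -1.42. Of the 16 others, each under 5 FPKM in both libraries, 13 were lower in EV high dose, 1 was higher (Il1b) and 2 were listed at 0 in both. These directions are of FPKM as deposited, without taking off the median gene. Together these 16 held 18.01 FPKM in NASH, 7.41 in EV high dose, 6.22 in EV low dose and 3.93 in control. Camp, Elane, Ly6g, Mpo and Ngp were listed at 0 in EV high dose, and all but Ngp also in EV low dose. In NASH Camp was at 3.29 FPKM, Ngp at 2.06, and the other 3 at 0.449 or less. A lower value was common among low genes of other kinds. Most T and NK cell markers and most cholangiocyte markers under 5 FPKM were also lower, while those of B and plasma cells went both ways. With no filter 376 genes were 1.5-fold higher and 920 lower. The direction of the 16 low markers was therefore shared with some other lists, but not with all. The Kupffer cell markers under 5 FPKM, Spic (3.50 in NASH and 3.82 in EV high dose) and Xlr (1.08 and 2.16), were higher. Class II presentation genes under 5 FPKM went both ways. In sum the 16 neutrophil markers fell further (18.01 to 7.41 FPKM) than the 21 T and NK cell markers (12.7645 to 10.0029 FPKM), a difference that was not tested. In bulk tissue fewer cells of a type and less RNA per cell cannot be told apart.

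Macrophage genes as a list stood near the median gene. Macrophage and monocyte markers had 19 of 24 members kept, with a median of 0.07. All 24 summed to 1156 FPKM in NASH and 1159 in EV high dose, against 199 in control, a sum set by abundant members such as Lyz2. Of those not kept, Ms4a7 was higher in FPKM (2.51 in NASH and 3.54 in EV high dose) and the others were lower. Ly6c2 was at 4.28 FPKM in NASH and 2.90 in EV high dose, Cx3cr1 at 2.91 and 1.87, Itgam at 2.64 and 2.04, and Lyz1 at 2.05 and 2.02. Within the list Cd14, the endotoxin co-receptor, was at 0.704 FPKM in control, 14.5 in NASH, 8.22 in EV low dose and 7.34 FPKM in EV high dose (-0.80), while Lyz2, lysozyme, was at 32.4, 243, 216 and 287 (0.34). Kupffer cell markers had a median of 0.22 over 14 members, with none 1.5-fold lower. Lipid-associated macrophage markers had all 21 members kept and a median of -0.15. Grn, progranulin, was lower (22.1, 98.3, 62.5 and 53.1 FPKM, -0.77), as was the tetraspanin Cd63 (0.987, 52.2, 39.0 and 29.6 FPKM, -0.70), and Mmp12, macrophage elastase, was higher (0.0526, 30.1, 34.9 and 46.9 FPKM, 0.72). The list therefore held members on both sides. None of 21 T and NK cell markers reached 5 FPKM in either library. Of the class II presentation genes 8 of 19 were kept, with a median of -0.14, and H2-DMa, a peptide-loading chaperone chain, was at 0.776, 5.17, 1.53 and 1.15 FPKM (-1.42).

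Interferon response genes were slightly above the median gene, with 37 of 44 kept, 7 at least 1.5-fold higher, none lower and a median of 0.25. With the same protein-coding sum the median was 0.05. Ifit1, which binds foreign RNA, was at 1.96 FPKM in control, 5.90 in NASH, 6.98 in EV low dose and 11.3 FPKM in EV high dose (0.93), and Ifit3, its partner, at 3.71, 16.7, 16.6 and 28.3 (0.83). For both, EV high dose was the highest of the 4 livers. Ifi27 was at 86.5, 73.0, 87.5 and 123 FPKM (0.85). The interferon-stimulated response element is bound by factors downstream of interferon receptors, and the promoters of Ifit1 and Ifit3 are shown because each has 3 matches to its core. The letters searched were GAAANNGAA on both strands, with overlapping matches counted. They were found in 8.56% of all RefSeq promoters, in 8.80% of kept genes with a promoter and in 19 of the 29 kept list members with one, among them 4 of the 5 with a promoter that were 1.5-fold higher. The windows, upstream of each start on the plus strand, are chr19:34640757-34640836 for Ifit1 and chr19:34583365-34583444 for Ifit3 (GRCm38.p6, RefSeq), with matches in capitals as they read on this strand.
Ifit1: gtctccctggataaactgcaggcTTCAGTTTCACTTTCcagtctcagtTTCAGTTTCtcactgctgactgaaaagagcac
Ifit3: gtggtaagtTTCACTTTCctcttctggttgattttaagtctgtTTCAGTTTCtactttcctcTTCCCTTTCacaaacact
In Ifit1 a pair of the matches overlap, which makes the longer run of capitals. Chemokines and adhesion molecules had a median of 0.09 over 12 of 35 members, with Ccl9 at 0.72 and Cxcl1 at 0.66 as the 2 that were 1.5-fold higher and none lower. Matched on GC content and length, none was 1.5-fold higher and 1 was lower.

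Acute phase proteins, which hepatocytes secrete in inflammation, split. Of 29 kept members of 31, 3 were at least 1.5-fold higher and 3 lower, with a median of 0.15. Serpina3k, an antiprotease, was at 7065 FPKM in control, 1181 in NASH, 1684 in EV low dose and 2339 FPKM in EV high dose (1.09). Saa1, serum amyloid A, was at 29.2, 120, 125 and 206 FPKM (0.87), and with its close copy Saa2 (transcripts 87.3% identical) summed to 39.7, 172, 175 and 290.03. Lrg1, a secreted leucine-rich glycoprotein, was at 44.0, 111, 71.3 and 52.2 (-0.97). Serum amyloid A was thus highest in EV high dose, and Lrg1 and Lcn2 were highest in NASH.

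Hamp2 had the lowest ratio of all kept genes. It encodes a protein related to hepcidin, the liver hormone that limits iron export from cells, and lies beside Hamp, the hepcidin gene (Hamp2 at GRCm38 chromosome 7, 30922372 to 30924181). Hamp2 was at 169 FPKM in control, 359 in NASH, 202 in EV low dose and 4.50 FPKM in EV high dose (-5.93). EV high dose alone was low, and the other 3 livers lay within 169 to 359 FPKM. Hamp was at 403, 418, 451 and 600.4 FPKM (0.62), highest in EV high dose. The sum of both was 572, 777, 652 and 605 FPKM, a ratio of -0.26. The transcripts of the 2 genes were 88.8% identical over their alignment, so fragments may be assigned to either copy. Of the 26 kept genes of iron handling (of 31) 1 was 2-fold apart, Hamp2, and the median was -0.16. Fth1, ferritin heavy chain, was at 391, 846, 624 and 549 FPKM (-0.52).

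The promoters of Hamp and Hamp2 were 91.1% identical over their alignment, and a stretch of each is shown so that the likeness can be read. It holds 1 match to TTCNNNGAA, the letters of a STAT element (a palindrome, so both strands match together), which 8.30% of all promoters and 7.88% of kept genes hold. The windows are chr7:30944083-30944162 for Hamp and chr7:30924232-30924311 for Hamp2, both upstream of the start on the minus strand, with the match in capitals (RefSeq, GRCm38.p6).
Hamp: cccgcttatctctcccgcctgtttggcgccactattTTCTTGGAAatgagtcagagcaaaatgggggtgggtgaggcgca
Hamp2: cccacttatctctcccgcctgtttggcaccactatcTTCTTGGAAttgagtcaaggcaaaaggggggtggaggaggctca
The 9 letters of the match are the same in both copies. Of the 16 kept male-biased genes with a promoter, 1 (Keg1) held such a match.

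Matrix genes were lower by small amounts. Of 43 collagens and matrix proteins 25 were kept, 6 were at least 1.5-fold lower, 2 of them 2-fold, and none was 1.5-fold higher, with a median of -0.38. Col1a1, the main chain of fibrillar collagen of scars, was at 0.516 FPKM in control, 14.6 in NASH, 7.95 in EV low dose and 5.91 FPKM in EV high dose (-1.07). Fbln5, an elastic fibre protein, was at 0.551, 5.39, 3.50 and 1.75 (-1.11), and Bgn, biglycan, at 10.3, 40.1, 25.7 and 22.5 (-0.71). All 3 were highest in NASH and above control in EV high dose. The TGF-beta list had 13 of 27 kept, 5 at least 1.5-fold lower and a median of -0.48. Of the 13, 5 were kept through NASH alone, and the median was -0.27 with genes kept at 1 FPKM and -0.32 with no filter. Ccn2, a matricellular factor induced by TGF-beta and YAP, was at 1.05, 12.6, 6.47 and 5.45 FPKM (-0.98), and Tgfb1 itself at 1.17, 6.18, 4.28 and 3.15 (-0.69). Stellate cell markers had a median of -0.05 over 14 kept of 21 members, none of the 14 being 1.5-fold apart. All 21 summed to 413 FPKM in NASH and 406 in EV high dose, a sum set by the abundant members. Those not kept, all under 5 FPKM, were lower in FPKM except Lhx2 (0.372, 0.688, 0.890 and 0.706). Among them Acta2 was at 0.354, 4.16, 2.10 and 1.69 FPKM, Des at 0.470, 1.71, 1.13 and 0.832, and Thy1 at 0.0626, 0.744, 0.351 and 0.256. With genes of similar GC content and length as the reference, described below, the matrix median was -0.14, that of TGF-beta genes -0.28, and Col1a1 stood at -0.60. Of the 25 matrix genes 7 were kept through NASH alone, and the median with genes kept at 1 FPKM was -0.32.

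Lipid genes differed gene by gene. De novo lipogenesis had 21 of 23 members kept and a median of -0.15. Thrsp, a nuclear protein of lipogenic cells, was at 60.6 FPKM in control, 13.2 in NASH, 57.2 in EV low dose and 43.6 FPKM in EV high dose (1.75), while Lpin1, a phosphatidate phosphatase and coactivator, was at 7.6, 27.6, 16.0 and 12.2 (-1.01) and Fasn, fatty acid synthase, at 42.1, 19.7, 18.8 and 13.1 (-0.45). Matched on GC content and length, Fasn stood at 0.01 and the list median also at 0.01. Lipid droplet and uptake genes had a median of -0.04 over 23 members. Cidec, a protein of large droplets, was at 0.0793, 55.1, 42.8 and 31.7 FPKM (-0.68), and Fabp1, the liver fatty acid-binding protein, at 6860, 2789, 3066 and 3941 (0.60). Of 39 genes of fatty acid oxidation and PPARA targets 37 were kept, with a median of 0.05. Ucp2, a mitochondrial carrier, was lowest (-0.85) and Acsl1, which activates fatty acids, highest (0.70). Cholesterol synthesis had a median of 0.19 over 19 of 26 members. Msmo1, a demethylase of the pathway, was at 55.6, 10.9, 16.6 and 22.2 FPKM (1.07).

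Psma3, a subunit of the proteasome core, stood apart from its complex. It was at 107 FPKM in control, 47.6 in NASH, 52.8 in EV low dose and 122 FPKM in EV high dose (1.44), while the other 27 proteasome genes had ratios from -0.44 to 0.48. Control and EV high dose were high for this subunit and NASH and EV low dose low. Among noncoding genes the tRNA gene n-TYgta10 was listed at 0 in EV high dose against 13.2 FPKM in NASH, and the intronic snoRNA Snord14c was at 14.7 FPKM in NASH and 4.40 in EV high dose. The highest noncoding ratios were those of the pseudogenes Mup-ps21 (2.18) and Gm13736 (1.92).

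The ratio moved with the base composition, the length and the level of transcripts. Spearman's correlation of the ratio across genes was taken over 7066 protein-coding kept genes with a transcript in the annotation. It was -0.45 with GC content, -0.24 with length and 0.33 with the mean FPKM of the 2 libraries. Genes share the same libraries and are no independent replicates. The median ratio went from 0.18 in the quintile of genes with the lowest GC content to -0.23 in the quintile with the highest. In the lowest quintile 9.26% of genes were 1.5-fold higher and 0.354% lower, and in the highest 0.495% were higher and 15.2% lower. The correlation with GC content was -0.39 for EV low dose over the same NASH library and -0.33 for EV high dose over EV low dose. For NASH over control it was 0.05, and for EV high dose over NASH in colon 0.02. In the same order the correlation with length was -0.23, -0.14, 0.24 and -0.24. That with mean FPKM was 0.32, 0.15, -0.35 and 0.24. The reference matched on GC content and length does not adjust for level. The median GC content was 42.4% for genes 2-fold higher, 55.8% for genes 2-fold lower and 50.3% for all kept genes. Read against genes of similar GC content and length, 45 genes were 2-fold higher and 15 lower. Of the 59 higher protein-coding genes with a GC value 41 remained, and of the 25 lower ones 10. Slco1a1 then stood at 3.01, Mup14 at 2.60, S100a9 at -1.80, Nupr1 at -1.64, Fgf21 at -1.43 and Hamp2 at -6.04. Of the lower genes named above, Trib3 (-0.89), Hspa1b (-0.62), Atf5 (-0.85), Osgin1 (-0.95), Zbtb16 (-0.67), Lpin1 (-0.82) and Col1a1 (-0.60) were no longer 2-fold apart. Among the higher genes this held for Selenbp2 (0.98), Cyp2c37 (0.98), Ugt2b1 (0.97), Ugt2a3 (0.95), Sult1b1 (0.88), Msmo1 (0.88) and Cyp7b1 (0.83). List medians were 1.06 for male-biased genes, 0.41 for phase 1 and 0.38 for phase 2 enzymes, 0.46 for amino acid catabolism, 0.25 for interferon genes, -0.31 for the integrated stress response and -0.34 for immediate early genes.

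Fewer members were past a fold on this reference in many lists. Genes 1.5-fold higher went from 18 to 14 among phase 1 enzymes (with 1 then lower), from 15 to 10 among phase 2 enzymes, from 5 to 2 among carriers, from 7 to 5 among bile acid genes, from 8 to 6 among complement genes and from 7 to 5 among interferon genes. Male-biased genes had 19 and amino acid catabolism 13 on both references. Phase 2 genes 2-fold higher went from 5 to 2. Genes 1.5-fold lower went from 10 to 8 in the integrated stress response, from 6 to 4 each among immediate early, glucocorticoid and matrix genes, from 5 to 3 in the TGF-beta list, from 4 to 1 among NRF2 targets and from 3 to 1 among heat shock genes. The growth hormone axis then had 1 higher and 1 lower, the higher one being Igfals, at 1.29 against 0.82. Some lists gained members. Genes 1.5-fold higher went from 1 to 3 each in cholesterol synthesis and in glucose metabolism. They went from 1 to 2 each in de novo lipogenesis and among lipid droplet and uptake genes. Of the genes named above with FPKM or a ratio, those no longer 1.5-fold apart were Igf1 (0.49), Ghr (0.57), Cyp3a11 (0.47), Fabp1 (0.41), Acsl1 (0.53), Hamp (0.52), Cxcl1 (0.47), Ccl9 (0.50) and Mmp12 (0.45) among the higher. Among the lower they were Socs3, Fkbp5 (-0.47), Cidec (-0.52), Nr1d1 (-0.54) and Tgfb1 (-0.22).

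**Figure D4:**
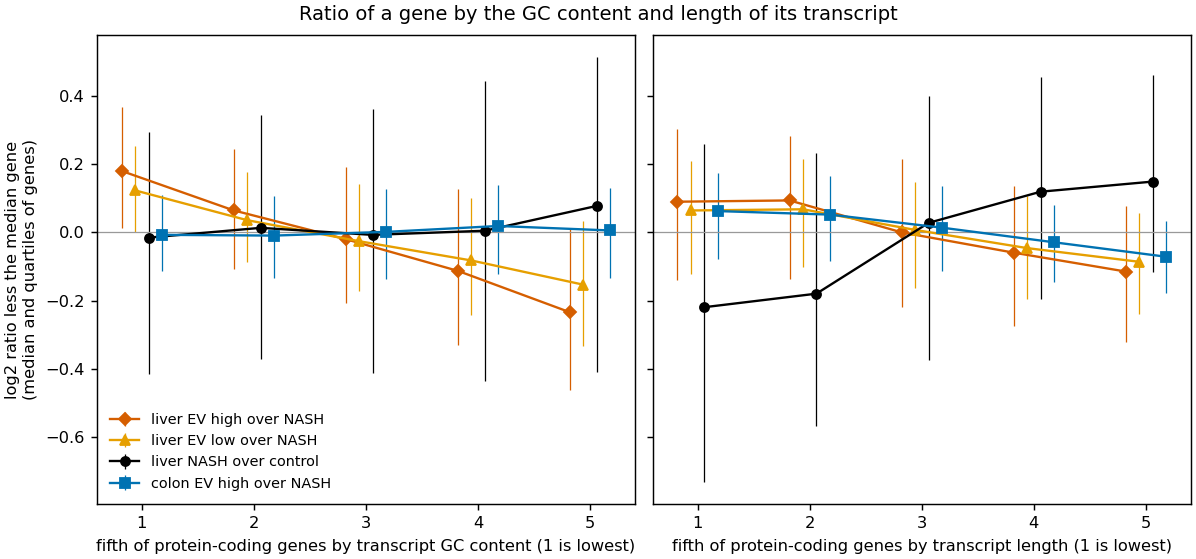
Median log2 ratio less the median gene (points) with lower and upper quartiles of genes (vertical bars), by quintiles of protein-coding genes in transcript GC content (left) and length (right), for 4 ratios. Across the quintiles of GC content the liver EV high over NASH line falls from 0.18 to -0.23, and the colon line stays within 0.02 of 0. Across the quintiles of length the liver line goes from 0.09 to -0.11 and the colon line from 0.06 to -0.07.

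The pair of liver libraries that the ratio does not use gives a further description of the same genes. Control stood above EV low dose, relative to the median gene, for 63 of the 69 genes that were 2-fold higher with EV high dose. Their median log2 ratio of control over EV low dose was 2.18. Without the Mup genes control stood above EV low dose for 40 of 46, with a median of 1.80. Over all kept genes the share was 49.99%, which is fixed by taking off their median gene. Of the 31 lower genes 13 were higher in control than in EV low dose and the median was -0.10. In colon, 15 of the 69 higher genes had a value and 8 of these lay above 0 for EV high dose over NASH (median 0.06). Of the 18 lower genes with a value 4 lay above 0 (median -0.33), and of all 6330 kept genes with a value 52.4% did (median 0.01). Between 5248 (control) and 7300 (NASH) genes reached 5 FPKM in the 4 livers, with 6656 in EV high dose. Genes not annotated as protein-coding, pseudogenes among them, held 52.0% to 57.1% of the summed FPKM.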

How the data were processed

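Per the labels' protocols, TRIzol and the RNeasy Plus kit were used for RNA, and the TruSeq Stranded Total RNA Gold kit for libraries. Values are FPKM as deposited by the authors, 1 column for each library, read without further change. Trimmomatic 0.38, StringTie, HISAT2 and mm10 are named in the submitters' processing notes. Their order and roles, other versions and the depth were not given in the sources used here. Of 45777 identifiers 45679 were matched to symbols of GRCm38.p6 and 98 were not. Ratios used a pseudocount of 1 FPKM on genes at 5 FPKM or more in at least 1 of the 2 libraries, less the median gene. With 1 library a side no test was made. The members and the 52 gene lists were chosen with earlier results of these data known, and 2 list symbols found no gene. Named genes were the 20 highest and 20 lowest protein-coding ratios, up to 5 members of each list with the largest ratios, members of 6 lists where needed, and the highest and lowest noncoding pairs. Further genes, among them Mup20, Ddit3, Igf1, Oat, Fabp1 and Lyz2, were named after their values were seen. GC content and length are medians over the coding transcripts of a gene (GENCODE M21, GRCm38), and the matched reference, 30 bins of both, was added after the data were seen. Other alternatives were 2 pseudocounts, 3 filters, the values as deposited, an equal protein-coding sum, protein-coding genes only and the mean over members. The code was tested on simulated data. Python 3.11.15, numpy 2.4.6, pandas 2.3.3 and scipy 1.17.1 were used.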

Additional observations from a re-analysis of the deposited data

Results flagged for a closer look

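Of the genes 2-fold higher in the EV high dose liver, 7 had a colon ratio below 0, and 2 of these, Car3 and Inmt, were at least 2-fold lower in colon. Car3, a carbonic anhydrase of liver and fat, was at 150 FPKM in NASH and 349 in EV high dose in liver (log2 ratio 1.32), and at 46.8 and 7.54 FPKM in colon (log2 ratio -2.52). Inmt was at 89.2 and 304 FPKM in liver (1.86), and at 18.4 and 7.52 FPKM in colon (-1.22). Each tissue has 1 library a side, and the difference between tissues was not tested.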

How the results depend on the processing

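No paired analysis was possible because each group has 1 library in a tissue, and no library could be left out for the same reason. The counts of genes past a fold depend on the choices made. At 2-fold, 69 genes were higher and 31 lower. As deposited 55 were lower. With genes kept at 1 FPKM 104 were higher and 48 lower, with no filter 70 were lower, and with a pseudocount of 0.1 FPKM 66 were lower. With a pseudocount of 5 FPKM 45 were higher and 9 lower, with the same protein-coding sum 90 were lower, and matched on GC content and length 45 were higher and 15 lower. At 1.5-fold, 312 were higher and 374 lower. As deposited these were 191 and 628, with the same protein-coding sum 127 and 953, matched on GC content and length 188 and 154, and with a pseudocount of 5 FPKM 187 and 103. With genes kept at 1 FPKM 511 were higher, and with no filter 920 were lower. The male-biased median was 1.499 as a mean over members and 0.99 with no filter. The neutrophil median was -0.95 with genes kept at 1 FPKM, -1.67 matched on GC content and length, -1.07 as a mean, -0.49 with no filter and -1.01 with a pseudocount of 5 FPKM. The matrix median was -0.14 matched on GC content and length. Of 40 genes recomputed under each alternative, 39 of them 2-fold apart, 14 fell under 2-fold when matched on GC content and length and 20 with a pseudocount of 5 FPKM. Of the 20 highest and 20 lowest protein-coding ratios 11 fell under 2-fold when matched, all of them among the 20 lowest. None of these 40 genes and of 13 list medians recomputed changed sign, but other lists and genes did when matched, among them the medians of de novo lipogenesis (0.01), clock genes (0.03) and stellate cell markers (0.02), Fasn (0.01) and Stat5b (0.11). Apart from the added bins of GC content and length, and from smaller sets of genes under the filters, the cause of these changes was not tested. Depth is unknown, and the lowest value above 0 was 1e-06 FPKM, so no value of 1 read could be read from the table.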

Other observations

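Further genes 2-fold higher in EV high dose than in NASH, named after their values were seen, belong to none of the groups above. Nudt7, a peroxisomal hydrolase of coenzyme A, was at 369 FPKM in control, 50.3 in NASH, 78.0 in EV low dose and 118 FPKM in EV high dose (log2 ratio 1.31). Gpcpd1, a glycerophosphocholine phosphodiesterase, was at 19.5, 31.3, 44.5 and 62.7 FPKM (1.08), and Upp2, a liver uridine phosphorylase, at 49.1, 83.2, 123 and 170 (1.12). Nudt7 was highest in control, and Gpcpd1 and Upp2 were highest in EV high dose. Hacl1, a lyase of peroxisomal alpha-oxidation, was at 137, 24.3, 36.7 and 47.1 FPKM (1.03).

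Among lower genes outside the groups, Abca3, a lipid transporter, was at 9.35 FPKM in control, 15.3 in NASH, 6.60 in EV low dose and 5.66 FPKM in EV high dose (-1.19). Plec, the cytoskeletal linker plectin, was at 5.23, 15.8, 8.02 and 5.92 FPKM (-1.18). Matched on GC content and length, Abca3 stood at -0.85 and Plec at -0.71, both under 2-fold. The histone gene H2bc6 was at 5.06, 28.2, 5.63 and 11.4 FPKM (-1.13), the only 1 of 26 kept replication-dependent histone genes that was 2-fold lower, and their median was 0.17.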
